A study of Homo sapiens with 6 samples.

Results

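The receptors through which hematopoietic growth factors act were examined in NB4 cells, a human acute promyelocytic leukemia cell line that carries the PML-RARA fusion. The genes were taken by symbol from the deposited table, and they are FLT3, KIT, CSF1R, CSF3R, CSF2RA, CSF2RB and IL3RA. Of these 7 symbols, 6 had a row among the 18625 genes of the table. KIT, the receptor of stem cell factor, was absent from it and is not analysed here, and the lowest mean of any listed gene was 5.90 normalized counts. The cells had been kept for 3 days with DMSO, the solvent, or with 10 μM Tan I, a tanshinone from the root of Salvia miltiorrhiza that the study examined as an inhibitor of EZH2. There were 3 libraries of total RNA per group. The labels give no separate cultures behind the replicate numbers, so the spread between libraries may be partly technical. The receptors were chosen by family with the difference of FLT3 between these same groups, in these same normalized counts, already known, so their values are given as a description and no test is drawn from them.

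Hematopoietic growth factors keep blood progenitors alive, make them divide and help to set which lineage they enter. FLT3, KIT and CSF1R are class III receptor tyrosine kinases, which pair up when their ligand binds, phosphorylate each other and pass the signal to the RAS-MAPK, PI3K and STAT5 pathways. CSF3R, CSF2RA, CSF2RB and IL3RA are chains of cytokine receptors that have no kinase of their own and work through bound JAK kinases. The receptors of GM-CSF and IL3 each have their own ligand-binding alpha chain, CSF2RA or IL3RA, and both use CSF2RB, the common beta chain, to signal. FLT3 is best known in acute myeloid leukemia for activating mutations, and CSF3R for driving the maturation of neutrophils.

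The reads on the listed genes, recovered from the normalized values, ranged from 25356503 to 31679138 in DMSO and from 21502760 to 24298627 in Tan I. The first principal component of the 16887 genes tested held 70.8% of the variance between libraries and did not follow the groups, with DMSO replicate 1, DMSO replicate 3 and Tan I replicate 1 at its low end and DMSO replicate 2 and Tan I replicate 3 at its high end. Of the 7 promyelocyte markers, 6 had a row, among them MPO, which had a mean of 62588 normalized counts (SD 1950) under DMSO and of 36602 (SD 3112) under Tan I, and ELANE had no row. Their summed level was between 72931 and 80004 in DMSO and between 43870 and 53098 in Tan I, mostly through MPO. Limma called MPO and CTSG as lower without adjustment, where 1.1% of all genes were called as lower. AZU1, PRTN3, CD33 and CD63 overlapped between the groups, the last pair with higher means in Tan I. DESeq2 called MPO with adjustment, among 0.0947% of all genes. With the first principal component held, limma called MPO, CTSG, AZU1 and PRTN3 as lower, also with adjustment, where 1.15% of all genes were called. That component was computed from the same values, which the p-values of this fit do not count. The summed level of the 5 monocyte and macrophage markers with a row, of 9 listed, went from between 45.7 and 82.8 to between 196 and 341, mostly through C1QA, while CD14 stayed under 20 normalized counts in every library and CD163, FCGR3A, MRC1 and C1QB had no row. The part of such shifts in the receptor levels was not tested, and in bulk RNA fewer cells of a type cannot be told apart from less RNA per cell. Of the eosinophil markers, a lineage that uses CSF2RB through IL5, 4 of 6 had a row and 3 were tested. EPX, with a mean of 2728 normalized counts under DMSO and 1470.3 under Tan I, was called as lower without adjustment (limma, adjusted p = 0.996). DESeq2 called EPX with adjustment, and so did limma with the first principal component held. PRG2 (117 and 85.7) and SIGLEC8 (22.9 and 27.3) were not called by the main fit. PRG3 was under the limit of the test. The groups of PRG2 and PRG3 lay apart, lower in Tan I, as for 3.97% of all genes. CLC and CCR3 had no row. Of 7 stem and progenitor markers only CRHBP had a row, with 51.6 to 69.4 normalized counts over both groups, and CD34 had none.

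FLT3 was lower in Tan I. Its normalized counts, that is, reads divided by the size factor of the library, were 81.1, 118 and 94.5 in DMSO replicates 1, 2 and 3 and 57.7, 56.9 and 73.3 in Tan I replicates 1, 2 and 3. Each Tan I library lay below each DMSO library, but the gap was narrow between DMSO replicate 1 and Tan I replicate 3. The means were 97.7 ± 18.4 and 62.6 ± 9.28 (SD, n = 3 each), a ratio of 0.641. From limma, fitted to log2(normalized count + 1) of all genes tested, the log2 fold change was -0.63 with a standard error of 0.23.

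The FLT3 values rest on few reads. DMSO replicates 1, 2 and 3 held 87, 122 and 121 FLT3 reads, and Tan I replicates 1, 2 and 3 held 59, 54 and 55. By the exact Poisson interval, 87 reads allow 69.7 to 107 and 55 reads allow 41.4 to 71.6 at the 95% level, for counting error only. These are raw reads of DMSO replicate 1 and Tan I replicate 3, with size factors of 1.07 and 0.75. As raw reads the intervals therefore cannot be set against each other, but divided by these size factors they overlap. FLT3 (ENSG00000122025) occupies chr13:28003274-28100592 of GRCh38 (- strand), with 24 exons in the canonical transcript that GENCODE release 44 gives. No annotated gene shared exon bases with it.

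The bases just before the FLT3 start are shown beside those of CSF3R, the receptor of the set with the most reads. They differ in their number of CpG. As background, PRC2, the complex that holds EZH2, is known to gather at unmethylated, CpG-rich promoters. The sequences are from RefSeq on GRCh38.p14, they run 5′ to 3′ along the gene and CpG dinucleotides are in capitals. That of FLT3 is chr13:28100577-28100826 on the - strand and that of CSF3R is chr1:36483315-36483564 on the - strand, before the outer of its 2 RefSeq starts.
FLT3: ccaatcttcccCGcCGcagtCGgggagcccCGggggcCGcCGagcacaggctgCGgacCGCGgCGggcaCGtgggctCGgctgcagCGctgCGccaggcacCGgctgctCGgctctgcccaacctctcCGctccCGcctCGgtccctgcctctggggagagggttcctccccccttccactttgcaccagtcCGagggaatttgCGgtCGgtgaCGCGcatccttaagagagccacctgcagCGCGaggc
CSF3R: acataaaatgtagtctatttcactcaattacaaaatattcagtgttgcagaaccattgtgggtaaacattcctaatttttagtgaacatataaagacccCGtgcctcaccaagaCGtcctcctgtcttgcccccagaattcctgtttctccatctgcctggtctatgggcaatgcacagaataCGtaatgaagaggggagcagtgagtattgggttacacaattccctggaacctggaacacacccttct
The 250 bases of FLT3 hold 26 CpG and those of CSF3R hold 3, where the median of 34961 RefSeq promoters of that length was 11. As many CpG as in FLT3 or more were found in 19.6% of those promoters. KIT, the other class III receptor gene with a CpG-rich start, had 34. The remaining entries had between 2 and 8, for both starts of CSF1R, the inner start of CSF3R, CSF2RA and IL3RA. CSF2RB was not matched. On either strand the RUNX core TGTGGT, present in 10.98% of promoters, was found 1 time, before the inner start of CSF1R. The C/EBP motif TTGCNNAA, present in 9.04%, was found 1 time each in IL3RA and before the outer start of CSF3R, and the PU.1 motif GAGGAAGT, present in 2.17%, was found in 0 of these windows. None of these 3 motifs was in the FLT3 window. No chromatin or methylation measurement of these regions was analysed here, so whether PRC2 has a part in the FLT3 difference was not tested.

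**Figure D1:**
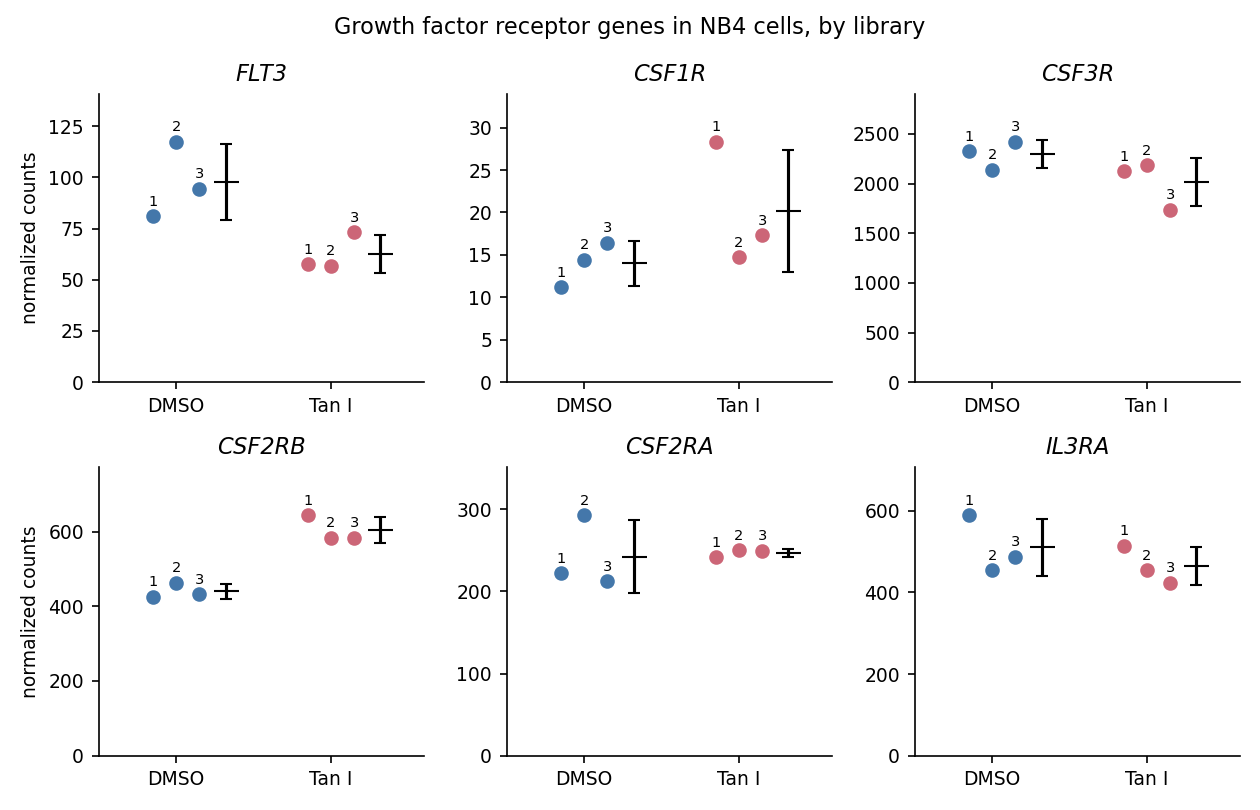
Normalized counts of the 6 receptor genes in each library of NB4 cells, with DMSO in blue and Tan I in red. Numbers beside the points are replicate numbers, bars are the mean ± SD of 3 libraries and each axis starts at 0. The groups lie apart for FLT3, lower in Tan I, and for CSF2RB, higher in Tan I, and overlap for the other 4 genes.

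CSF1R, the receptor of M-CSF and a gene of monocytes and macrophages, was close to the lower limit of the test. Its normalized counts were 11.2, 14.4 and 16.4 with DMSO and 28.3, 14.8 and 17.3 with Tan I, in replicates 1, 2 and 3. Tan I replicate 1 stood above the rest and Tan I replicate 2 lay within the DMSO values. The means were 14.0 ± 2.64 and 20.1 ± 7.22 (SD, n = 3 each), from 12 to 21 reads in DMSO and 13 to 29 in Tan I. The log2 fold change was 0.46 with a standard error of 0.38, and it was 0.19 without Tan I replicate 1, so this difference was not detectable at this depth. CSF1R (ENSG00000182578) occupies chr5:150053291-150113372 (- strand).

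CSF2RB was the member that stood furthest outside its spread, and it was higher in Tan I. It had 425, 463 and 433 normalized counts in DMSO replicates 1, 2 and 3 and 644, 584 and 584 in Tan I replicates 1, 2 and 3. Each Tan I library lay above each DMSO library by more than 100 normalized counts. The means were 440.5 ± 20.1 and 604 ± 34.7 (SD, n = 3 each), a ratio of 1.37, and the log2 fold change was 0.45 with a standard error of 0.12. The 18 alternatives gave log2 fold changes from 0.39, after rescaling the libraries to one total, to 0.49, without DMSO replicate 2. CSF2RB (ENSG00000100368) occupies chr22:36913628-36940439 (+ strand), with 14 exons in the canonical transcript. A pseudogene derived from it, CSF2RBP1, is annotated on the same chromosome and had no row in the table. The authors removed reads that mapped to several locations, so reads common to both copies would not be counted for either.

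For the alpha chains that pair with CSF2RB, no difference between the groups was resolved. CSF2RA, the alpha chain of the GM-CSF receptor, had 222, 293 and 213 normalized counts in DMSO and 241, 249.8 and 249.4 in Tan I. The Tan I libraries lay inside the range of the DMSO libraries, with means of 242 ± 43.9 and 247 ± 4.71 (SD, n = 3 each). The log2 fold change of CSF2RA was 0.04, its 95% confidence interval reached from -0.35 to 0.43, and it ran from -0.05 to 0.18 over the alternatives, so its sign was not fixed.

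IL3RA, the alpha chain of the IL3 receptor and a surface antigen of leukemic blasts known as CD123, had 589, 454 and 488 normalized counts in DMSO and 514, 454 and 424 in Tan I. The groups overlapped, with means of 510.2 ± 70.6 and 464 ± 45.8 (SD, n = 3 each). IL3RA had a log2 fold change of -0.13, with a 95% confidence interval from -0.48 to 0.22, and it was -0.02 without DMSO replicate 1 and -0.21 without DMSO replicate 2. CSF2RA and IL3RA lie next to each other in the pseudoautosomal region, on chromosome X from 1268800 to 1310381 and from 1336616 to 1382689. That region has a copy on chromosome Y, and whether it was masked before multiply mapped reads were removed is not given in the sources used here. Their levels against the other receptors are therefore uncertain, while the comparison between libraries uses the same counting on both sides.

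The balance of the common beta chain to its alpha chains was described per length, as CSF2RB over the sum of CSF2RA and IL3RA, each in normalized counts per kilobase of canonical transcript. This ratio was 0.174, 0.209 and 0.206 in DMSO replicates 1, 2 and 3 and 0.284, 0.278 and 0.292 in Tan I replicates 1, 2 and 3. The Tan I libraries differed among themselves by far less than they differed from DMSO, with means of 0.196 ± 0.0197 and 0.285 ± 0.00674 (SD, n = 3 each). Taken singly, CSF2RB over CSF2RA was 0.690 ± 0.0880 and 0.916 ± 0.0709, and CSF2RB over IL3RA was 0.278 ± 0.0477 and 0.414 ± 0.0205, with the groups apart for both. The ratio of CSF2RB to FLT3 was 3.62 ± 0.512 in DMSO and 7.72 ± 1.30 in Tan I. All of these follow from the same values of CSF2RB and are no further evidence of its difference.

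CSF3R, the G-CSF receptor, had the most reads of the set. It had 2326, 2140 and 2423 normalized counts in DMSO and 2127, 2185 and 1738 in Tan I replicates 1, 2 and 3. Tan I replicate 3 was the lowest library, and Tan I replicate 2 lay above DMSO replicate 2, so the groups overlapped. The means were 2297 ± 144 and 2016 ± 243 (SD, n = 3 each), with a log2 fold change of -0.19 (95% confidence interval -0.49 to 0.11) that was -0.09 without Tan I replicate 3. CSF3R (ENSG00000119535) occupies chr1:36466043-36483278 (- strand).

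Over the 6 receptors tested, limma called 2, CSF2RB as higher and FLT3 as lower, where a call needs an unadjusted p-value no larger than 0.05 and a log2 fold change of 0.25 or more in size. The same rule called 2.42% of the 16887 genes tested, 1.32% as higher and 1.1% as lower. Groups that did not overlap were found for the same 2 receptors and for 7.89% of the genes tested, 3.92% with Tan I higher and 3.97% with Tan I lower. With adjusted p-values limma called 0 of the 6 receptors and 0.0% of the genes. EdgeR on the recovered reads called the same 2 receptors without adjustment, where it called 1.37% of the genes as higher and 1.05% as lower, and 0 with it. DESeq2 also called these 2 without adjustment, among 1.52% of the genes as higher and 0.971% as lower, 2.49% in all, and 0 receptors with it, among 0.0947% of the genes. Nothing is read from these counts, because the set was chosen with this contrast in view. CSF2RB passed the unadjusted rule in each of the 18 alternatives. FLT3 did not pass it with quantile normalization, where its log2 fold change was -0.57, or without DMSO replicate 2 (-0.49), DMSO replicate 3 (-0.64), Tan I replicate 1 (-0.57) or Tan I replicate 2 (-0.56). When the library score on the first principal component entered limma as a covariate, it gave log2 fold changes of 0.46 for CSF2RB and -0.72 for FLT3 and called both without adjustment and CSF2RB with it, from which again nothing is read, where this fit called 4.25% of all genes as higher and 4.61% as lower without adjustment and 1.15% with it.

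**Figure D2:**
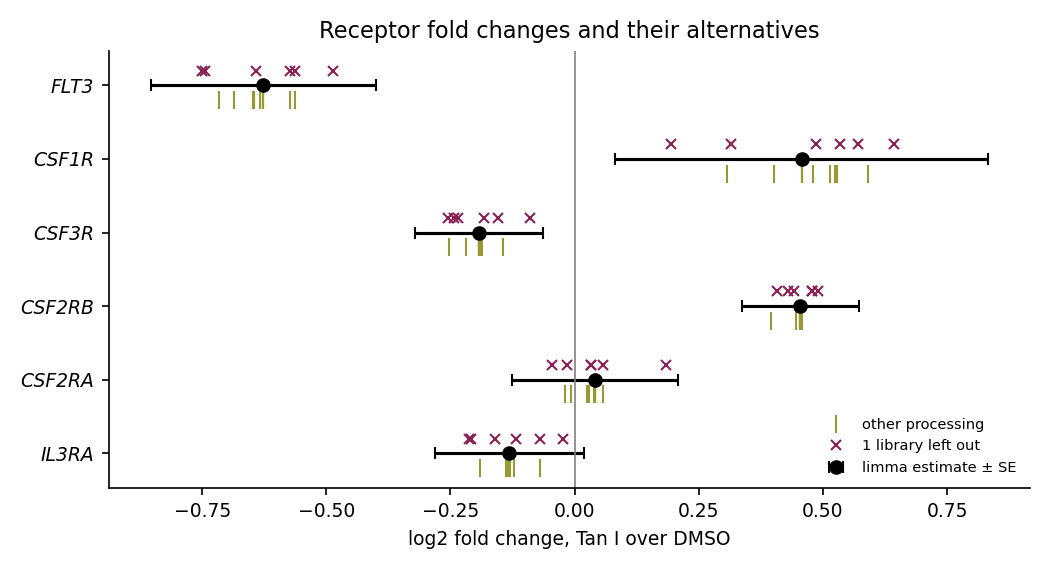
Log2 difference between Tan I and DMSO, positive where Tan I is higher, for the 6 receptors, with the limma estimate and its standard error as black points and bars, the fits with 1 library left out as crosses and the other alternatives as ticks. The values of CSF2RB stay between 0.39 and 0.49 and those of FLT3 between -0.75 and -0.49, while CSF2RA lies on both sides of 0.

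Per length, CSF3R was the most abundant receptor in DMSO, at 763 ± 47.8 normalized counts per kilobase of canonical transcript. IL3RA followed at 331 ± 45.8, CSF2RA at 134 ± 24.2, CSF2RB at 90.8 ± 4.15, FLT3 at 25.5 ± 4.81 and CSF1R at 3.67 ± 0.690 (SD, n = 3 each). In this order no neighbours overlapped in their DMSO libraries. Of 16825 genes tested with a length, 85.9% lay below CSF3R, 21.2% below FLT3 and 1.77% below CSF1R. In Tan I the order was unchanged, but CSF2RB, at 124 ± 7.15, had drawn up to CSF2RA, at 136 ± 2.60, and its highest library, at 132.7, lay just under the lowest of CSF2RA, at 133.0. Divided by all annotated exon bases in place of the canonical transcript, IL3RA came before CSF3R and CSF2RB before CSF2RA in both groups, so these neighbours have no fixed order.

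**Figure D3:**
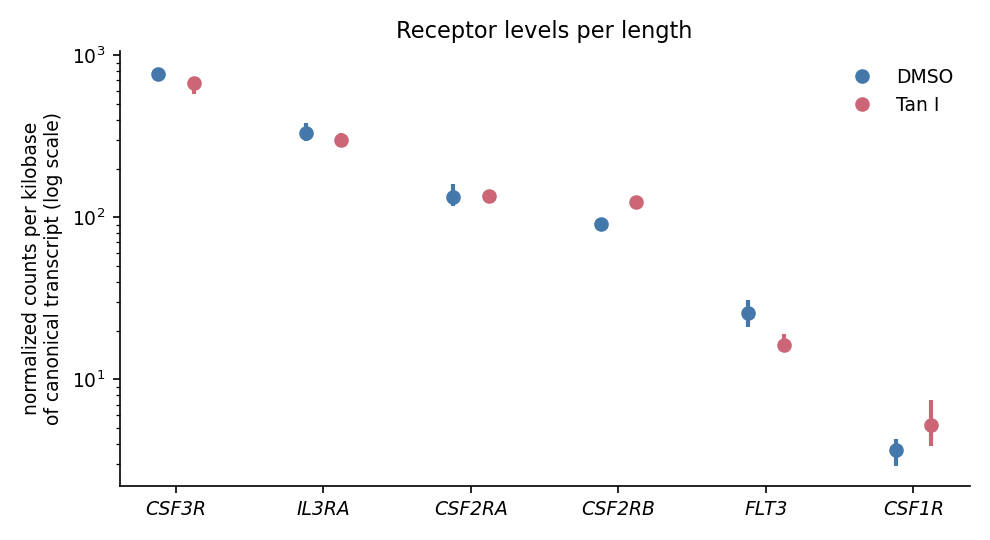
Normalized counts per kilobase of canonical transcript (log axis) for the 6 receptors, with DMSO in blue and Tan I in red. Points are means of 3 libraries and lines run from the lowest to the highest library. The levels run from 763 for CSF3R to 3.67 for CSF1R in DMSO.

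The pattern of FLT3 over the 6 libraries was set against that of 12620 genes with a mean of at least 50 normalized counts, as Pearson's r of log2(normalized count + 1). The points are the same 6 libraries in 2 groups, so r holds the difference between the groups and the library gradient together. The closest were DUSP3, PPM1F, APBB1IP and VLDLR, each with r of 0.99, and LINC02610 with 0.99. Their log2 fold changes were -0.31, -0.20, -0.37, -0.27 and -0.33, smaller than that of FLT3. At the other end stood TRAPPC13, PFKP and AL035252.3 with r of -0.99 and ARHGEF1 and TIPARP with -0.98.

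Of 8 ligands of these receptors, FLT3LG and CSF1 had a row, and KITLG, IL34, CSF2, CSF3, IL3 and IL5 had none. FLT3LG, the ligand of FLT3, had 28.0, 13.5 and 24.2 normalized counts in DMSO and 17.6, 20.0 and 32.0 in Tan I, and the groups overlapped. CSF1, the ligand of CSF1R, averaged 109 ± 13.3 under DMSO and 120.1 ± 23.0 under Tan I, also with overlap. Their median log2 fold change was 0.11, against -0.00162 over all genes tested, and it turned to -0.05 without DMSO replicate 2 or without Tan I replicate 3.

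Among related receptors, IL6R was the only one of 7 tested that limma called, and it was lower in Tan I. Limma called 1.1% of all genes as lower. With the first principal component held, it again called only IL6R, also with adjustment, where 1.15% of all genes were called. IL6R, the alpha chain of the IL6 receptor, had 450.4, 491 and 470.4 normalized counts in DMSO and 328, 378 and 317 in Tan I. The groups lay apart, and the log2 fold change was -0.47 with a standard error of 0.13 (limma, unadjusted p = 0.0084, adjusted p = 0.999). The study shows IL6R in its heatmap of changed genes from these libraries, so this is not independent evidence. Its partner IL6ST, which carries the signal, had 283 ± 7.99 and 251 ± 82.9 (SD, n = 3 each) with overlap. IL5RA, the alpha chain that pairs with CSF2RB for IL5, had 10.3, 15.4 and 15.6 in DMSO and 10.8, 1.05 and 14.7 in Tan I, too few counts for a comparison. IL2RG, the common gamma chain, had the largest positive log2 fold change, 0.16 with a standard error of 0.21. The median of the 7 was -0.23, and it was -0.42 without Tan I replicate 1 and -0.07 without Tan I replicate 3. PDGFRA and IL7R had no row.

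The kinases and adaptors that relay the signal held no gene called by limma, edgeR or DESeq2. Of 9 JAK and STAT genes limma called 0, and edgeR and DESeq2 called 0 as well, also at an unadjusted p of 0.05 alone. JAK2, the kinase bound to CSF2RB, averaged 781 ± 172 normalized counts under DMSO and 626 ± 129.8 under Tan I (SD, n = 3 each), and its log2 fold change of -0.32 had a 95% confidence interval of -0.83 to 0.20. STAT5A and STAT5B, the factors that both receptor classes activate, had log2 fold changes of -0.04 and -0.09 with standard errors of 0.13 and 0.11. Of 23 genes of the RAS-MAPK and PI3K relay, 13 were higher and 10 lower, the median being 0.04 on the log2 scale, and limma, edgeR and DESeq2 each called 0, also at an unadjusted p of 0.05 alone. With the first principal component held, limma called 1 of these 23 without adjustment, SHC1, an adaptor, as higher, and 0 with it. This fit called 4.25% of all genes as higher without adjustment. The largest differences there were those of GAB2, a docking adaptor, at -0.32 with a standard error of 0.16, and of PIK3R5, a regulatory subunit of PI3K gamma, at 0.22 with 0.19. Of 6 myeloid tyrosine kinases tested, the same tools called 0, with FGR at 0.67 (standard error 0.35) and SYK at -0.10 (standard error 0.13) at the ends.

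Genes that restrain these receptors were also not called, 0 of 18 by limma, edgeR or DESeq2, with 9 higher and 9 lower. In this list 1 gene reached an unadjusted p of 0.05 with DESeq2, below the threshold on the fold. With the first principal component held, limma called 4 of the 18 without adjustment, PTPRJ, SH2B3, SLA and SOCS2, 1 higher and 3 lower, and 0 with it. This fit called 8.86% of all genes without adjustment. PTPN6, the phosphatase SHP-1, had the largest positive log2 fold change, 0.30 with a standard error of 0.21, and SLA, an adaptor that helps to degrade receptors, the largest negative, -0.58 with 0.35. CBL, the ubiquitin ligase of FLT3, KIT and CSF1R, was high in the libraries at the low end of the first principal component in both groups, with 3328, 1835 and 2874 normalized counts in DMSO and 3514, 2091 and 1576 in Tan I replicates 1, 2 and 3.

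Genes known to be induced by STAT5 did not move together. Of 13 tested, 8 were higher and 5 lower, with a median of 0.03. Where 1.1% of all genes were called as lower, limma called 1 here. That was MYC, a driver of growth, with 4064, 5259 and 4870 normalized counts in DMSO and 2990, 3385 and 3958 in Tan I replicates 1, 2 and 3, each Tan I library below each DMSO library. Its log2 fold change was -0.46 with a standard error of 0.15 (limma, unadjusted p = 0.0186, adjusted p = 0.999), and it was not called without DMSO replicate 2 (-0.38), DMSO replicate 3 (-0.43), Tan I replicate 1 (-0.36) or Tan I replicate 2 (-0.45). The largest positive value was that of ID1, 0.31 with 0.27. CISH, the feedback inhibitor most directly tied to STAT5, had 217 ± 36.0 and 218 ± 9.83 normalized counts (SD, n = 3 each), with a log2 fold change of 0.01 (95% confidence interval -0.38 to 0.41). PIM1 and SOCS2 are named after their values were seen, because their groups also lay apart. PIM1, a survival kinase, had 861 ± 62.6 and 1044 ± 79.7 and was called as higher by edgeR and DESeq2 but not by limma, and SOCS2, a feedback inhibitor, had 334 ± 55.5 and 261 ± 10.4 and was called by none of the 3 tools. With the first principal component held, limma called MYC and SOCS2 as lower without adjustment, and MYC with it. This fit called 4.61% of all genes as lower without adjustment and 1.15% in either direction with it.

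Of 15 genes induced by ERK, 12 were higher and 3 lower, where 49.7% of all genes tested were higher. Most of these differences were small, with a median log2 fold change of 0.08. This median was 0.02 without Tan I replicate 3 and 0.18 without DMSO replicate 2. Limma called 1 of the 15 genes as higher, where 1.32% of all genes were called as higher. With the first principal component held, limma called PHLDA1 and ETV4 as higher, also with adjustment, where 1.15% of all genes were called. PHLDA1 had 666, 613 and 695 normalized counts in DMSO and 874, 920.1 and 876 in Tan I, with the groups apart. Its log2 fold change was 0.44 with a standard error of 0.11 (limma, unadjusted p = 0.0052, adjusted p = 0.999) and it passed the same rule in all 18 alternatives. DUSP6, the ERK phosphatase that most directly reports ERK activity, spread over 399, 1108 and 374 in DMSO and 395, 463 and 861 in Tan I, so no difference could be seen. SPRED2 had the lowest log2 fold change, -0.20 with a standard error of 0.25.

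Transcription factors that control receptor genes in myeloid progenitors held 2 called genes of 18 tested, both lower in Tan I, where 1.1% of all genes were called as lower. MYB, which keeps progenitors immature, had 3299, 3825 and 3149.7 normalized counts in DMSO and 2801, 2771 and 2652.5 in Tan I. The groups lay apart, with a log2 fold change of -0.32 and a standard error of 0.12 (limma, unadjusted p = 0.0276, adjusted p = 0.999). GFI1, a repressor needed for neutrophil development, had 3366, 3649 and 3091 in DMSO and 2868, 2583 and 2568 in Tan I. Its log2 fold change was -0.33 with a standard error of 0.11 (limma, unadjusted p = 0.0219, adjusted p = 0.999). Neither was called without DMSO replicate 1 (-0.34 for MYB, -0.33 for GFI1), DMSO replicate 2 (-0.23, -0.27), Tan I replicate 2 (-0.32, -0.31) or Tan I replicate 3 (-0.29, -0.30), and MYB was not called without the variance trend.

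The other factors were not called by the main fit, edgeR or DESeq2. MEIS1, a partner of HOXA9 known to bind the FLT3 gene, had 78.3, 50.1 and 78.1 normalized counts in DMSO and 52.8, 45.3 and 32.0 in Tan I, with overlap and a log2 fold change of -0.65 (standard error 0.30). GATA2 had the largest positive value, 0.42 with a standard error of 0.24. SPI1, which encodes PU.1, a main activator of CSF1R and the other myeloid receptor genes, had 1611 ± 274 and 2077 ± 360 normalized counts (SD, n = 3 each), with overlap. The median of the 18 was -0.11. In the fit that held the first principal component, limma called 8 of the 18 without adjustment, 3 higher and 5 lower, where 8.86% of all genes were called. These were CEBPE, GATA2, GFI1, LMO2, MEIS1, MYB, PBX3 and SPI1. With adjustment it called MYB and GFI1, where 1.15% of all genes were called.

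**Figure D4:**
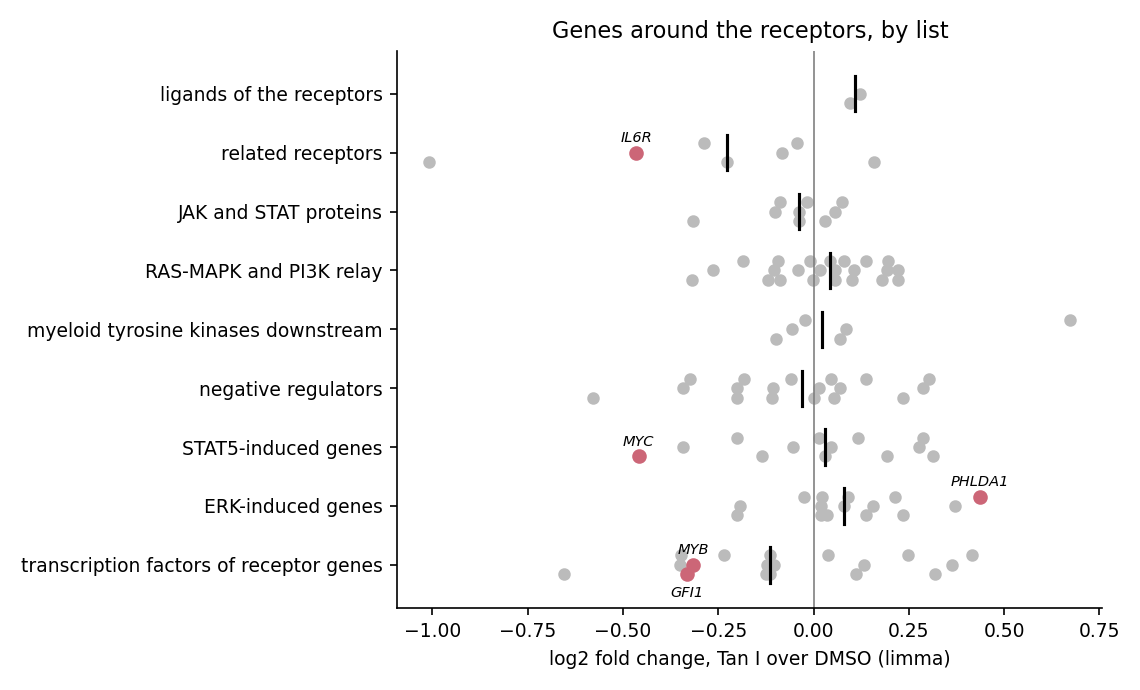
Log2 difference between Tan I and DMSO, positive where Tan I is higher, from limma for each gene tested in 9 lists around the receptors, 1 point per gene, with the list median as a black line. Genes called without adjustment are in red and named, namely IL6R, MYC, PHLDA1, MYB and GFI1, and the medians lie between -0.23 and 0.11.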

How the data were processed

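RNA-seq was performed on 6 libraries of NB4 cells, 3 with DMSO and 3 with 10 μM Tan I for 3 days. According to the methods, paired-end reads were mapped by the authors with STAR (GRCh38), multiply mapped ones were dropped and the rest were counted per gene with featureCounts; versions, annotation release and strand setting are not given in the sources used here. The authors deposited normalized counts, a signal of reads divided by one DESeq2 size factor per library, with their mean. The authors also deposited their own comparison, namely a log2 fold change and its error, the Wald test's score and p-values, none of which was used.

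In each library 100% of the values were whole multiples of the smallest step within 0.01, which gave the reads. The main test was limma 3.58.1 (R 4.3.3; eBayes with the variance trend) of log2(normalized count + 1) on treatment alone. It covered 16887 genes whose mean over the libraries reached 10, with Benjamini-Hochberg adjustment over all of them. The other 1738 genes were left out. The log2(normalized count + 1) scale understates changes of low genes. Alternatives are given below, with edgeR 4.0.16 and DESeq2 1.42.0 on the recovered reads. The fits were tested on simulated data. Positions and lengths came from GENCODE release 44, which held 99.6% of the identifiers.

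The receptors and the lists, written from general knowledge, were chosen with earlier results of these data known. Named were the receptors, every list gene called without adjustment, the largest rise and fall of each list, and the 5 genes most and least like FLT3.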

Additional observations from a re-analysis of the deposited data

How the results depend on the processing

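Among the 16887 genes tested, limma called 408 without adjustment, 223 higher and 185 lower, and 0 with adjustment. Each library rescaled to the same total turned the split to 188 higher and 250 lower of 438. Leaving out 1 library gave 160 to 1496 genes without adjustment, namely 180 without DMSO replicate 1, 201 without DMSO replicate 3, 1496 without Tan I replicate 1, 160 without Tan I replicate 2 and 271 without Tan I replicate 3, and 0 with adjustment in each. A fit that held the first principal component as covariate gave 1496 and 194. That component was computed from the same values that were then tested, which the p-values of this fit do not count. Its calls, here and for the genes named above, are therefore no added evidence. DESeq2 called 16 genes with adjustment, and 14 when run on all listed genes, an alternative added after seeing the data. The number of receptors called without adjustment was 1 with quantile normalization, between 1 and 2 with 1 library left out, and 2 in the other alternatives. The log2 fold change of FLT3 ran from -0.75 without DMSO replicate 1 to -0.49 without DMSO replicate 2 when 1 library was left out, and no called gene named in the text changed sign. The cause of these shifts was not tested. The deviations of same-numbered libraries from their group means correlated by 0.75, -0.09 and -0.45. These deviations carry the first principal component, so they cannot show whether the replicate numbers pair the libraries. With the replicate block, 348 genes passed limma unadjusted and 0 adjusted, with the same 2 receptors among the former. Depth limits CSF1R, at 12 to 29 reads per library, and FLT3, at 54 to 122.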
